A study of Mus musculus with 12 samples.

Results

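A set of 9 genes that mark the brain regions bordering the hippocampus was followed through dissected CA1 tissue of mice. The set holds 5 genes listed for neocortex (Fezf2, Rorb, Cux2, Ccn2 and Tbr1) and 4 listed for thalamus (Slc17a6, Lhx9, Tcf7l2 and Prkcd). They were chosen by symbol, out of 48709 gene IDs counted in each library. All 9 matched 1 ID each and passed the filter on low counts, as did 16829 genes in all.

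The libraries were made from polyadenylated RNA of CA1, a hippocampal field dissected under a microscope. There were 6 libraries from mice with myocardial infarction (MI), in which a coronary artery had been tied, and 6 from Sham mice, which had the like operation with the artery left untied. Genotype, strain, age and time after surgery are not stated in the labels. Whether every library is from a separate animal is not stated in the labels, and p-values here measure spread among libraries.

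The neocortex lies directly over the dorsal hippocampus and the thalamus lies under it, so a dissection can take up some of either. Neocortical excitatory neurons are laid out in layers, each with its own transcription factors. Fezf2 is a zinc finger factor of deep-layer neurons that project below the cortex, Tbr1 a T-box factor of deep-layer neurons that project to the thalamus, Rorb a nuclear receptor of the middle layer and Cux2 a homeobox factor of the upper layers. Ccn2 encodes a secreted matrix protein that marks the deepest cortical layer and is also made by fibroblasts. In the thalamus, Slc17a6 encodes the vesicular glutamate transporter of relay neurons, Lhx9 a LIM homeobox factor, Tcf7l2 a factor of the Wnt pathway that newly formed oligodendrocytes also carry, and Prkcd a protein kinase C of sensory relay nuclei. Several of these genes are also known in neighbouring excitatory neurons, such as those of the subiculum.

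Library totals ran from 20764133 to 35643127 counts. No library was a copy of another in its group: comparing their counts gave a chi-square of 6.22 to 78.2 per degree of freedom in 30 pairs. Counts of Y-linked genes exceeded those of Xist, the RNA of the inactive X chromosome, in 3 libraries of each group (MI 1, MI 3 and MI 4, and Sham 1, Sham 2 and Sham 3), and Xist exceeded them in the other 3. Sham 1, Sham 5 and Sham 6 held extremes of the 12 libraries on the summed region markers. The 7 CA1 pyramidal markers summed to between 1145 and 1516 CPM (counts scaled to library size) in MI libraries, and to 641 CPM in Sham 1 and 1810 CPM in Sham 5 at the extremes of the Sham group. The 7 dentate granule markers summed to at most 333 CPM in MI and to 850 CPM in Sham 6. The fits were also run without these libraries, each alone and Sham 1 together with Sham 5 or Sham 6.

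Other markers of the same regions were looked at beside the set. Of 18 other neocortex markers, all had counts in all 12 libraries and 17 passed the filter. Agmat, which did not pass, had 1 to 32 counts, so counts in every library do not show a source tissue. Of 16 other thalamus and habenula markers, 12 passed. Factors of that list were at very unlike depths. Gbx2 had 0 counts in 8 libraries and at most 1 in any, Irx2 had 0 in 8 and at most 3, and Pou4f1 had 0 in 6 and at most 3, the only 3 of the 16 with a library at 0. Irx1 had 1 to 13 counts. The factors Zic1, with 112 to 391 counts, Zic4, with 25 to 126, and Lef1, with 62 to 140, had counts in all 12 libraries. The 4 genes listed for thalamus are therefore called by their list below, and not by a source tissue. In bulk tissue, fewer cells of a type and less RNA per cell cannot be told apart.

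Promoter windows are shown for the neocortex genes Tbr1 and Cux2, whose levels varied most closely together among those with an entry. They are also shown for Fezf2, whose correlation with them over the 12 libraries did not pass, and for Slc17a6, which had the highest level of the thalamus list. They come from RefSeq on GRCm38.p6, the assembly also named mm10, run from 250 bases before the start site to 50 after it, and read 5′ to 3′ on the gene's strand. An entry was found for 8 of the 9 genes, all except Ccn2. Where the table held 2 windows for a gene, the one at the outermost start is shown. Capitals mark matches on either strand to any of 5 motifs: the T-box core GGTGTGA, the TATA box TATAAA, the CCAAT box CCAAT, the GC box GGGCGG and the cyclic AMP response element TGACGTCA.
Tbr1, chr2:61804203-61804502, plus strand: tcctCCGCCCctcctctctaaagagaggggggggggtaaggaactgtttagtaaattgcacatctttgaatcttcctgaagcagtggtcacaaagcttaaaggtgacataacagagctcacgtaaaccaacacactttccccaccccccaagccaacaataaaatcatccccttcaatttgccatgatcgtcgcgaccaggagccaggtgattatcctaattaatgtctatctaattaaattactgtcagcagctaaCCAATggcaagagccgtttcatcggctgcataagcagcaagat
Cux2, chr5:122049802-122050101, minus strand: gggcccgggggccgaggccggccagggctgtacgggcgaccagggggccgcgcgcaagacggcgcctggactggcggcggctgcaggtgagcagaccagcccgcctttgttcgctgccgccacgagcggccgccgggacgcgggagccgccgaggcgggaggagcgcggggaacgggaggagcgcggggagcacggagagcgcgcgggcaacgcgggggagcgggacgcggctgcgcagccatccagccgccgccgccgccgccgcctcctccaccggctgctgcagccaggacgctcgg
Fezf2, chr14:12345816-12346115, minus strand: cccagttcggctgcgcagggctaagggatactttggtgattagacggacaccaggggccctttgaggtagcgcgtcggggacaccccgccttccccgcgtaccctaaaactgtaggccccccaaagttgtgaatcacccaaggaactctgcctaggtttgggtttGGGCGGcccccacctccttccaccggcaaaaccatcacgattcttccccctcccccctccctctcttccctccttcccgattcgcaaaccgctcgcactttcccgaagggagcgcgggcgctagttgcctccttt
Slc17a6, chr7:51621580-51621879, plus strand: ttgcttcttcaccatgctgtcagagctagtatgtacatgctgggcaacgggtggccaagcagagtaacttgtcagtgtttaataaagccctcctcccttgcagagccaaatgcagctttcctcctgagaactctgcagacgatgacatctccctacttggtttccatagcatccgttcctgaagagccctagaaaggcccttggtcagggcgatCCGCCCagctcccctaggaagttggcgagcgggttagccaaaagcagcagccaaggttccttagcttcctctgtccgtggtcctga

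The 4 windows shared few of these motifs. With the start site counted as 1 and no position 0, Tbr1 held a GC box at -246 and a CCAAT box at 8, Fezf2 a GC box at -85 and Slc17a6 a GC box at -36, while the Cux2 window shown held none of the 5 motifs. The other RefSeq window of Cux2, chr5:122047776-122048075, held a TATA box at -67. GC content was 80.3% in the Cux2 window, 61.3% for Fezf2, 53.7% for Slc17a6 and 46.0% for Tbr1, beside a median of 52.7% over the 32851 windows of the table. A GC box stood in 35.7% of those windows, a CCAAT box in 37.4%, a TATA box in 13.6%, the T-box core in 3.98% and the cyclic AMP response element in 1.79%. No T-box core lay in any window of the 8 genes, which says only that those letters are not there.

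Fezf2 (ENSMUSG00000021743) lies on chromosome 14, 12342094 to 12348189, minus strand, in the mm10 build that all gene positions here use. Rorb (ENSMUSG00000036192) lies on chromosome 19, 18930605 to 19111196, minus strand, and Cux2 (ENSMUSG00000042589) on chromosome 5, 121856366 to 122050102, minus strand. Ccn2 (ENSMUSG00000019997) lies on chromosome 10, 24595442 to 24598683, plus strand, and Tbr1 (ENSMUSG00000035033) on chromosome 2, 61802930 to 61814114, plus strand. Slc17a6 (ENSMUSG00000030500) lies on chromosome 7, 51622006 to 51671119, plus strand, and Lhx9 (ENSMUSG00000019230) on chromosome 1, 138825186 to 138848577, minus strand. Tcf7l2 (ENSMUSG00000024985) lies on chromosome 19, 55741820 to 55933654, plus strand, and Prkcd (ENSMUSG00000021948) on chromosome 14, 30595354 to 30626210, minus strand. All 9 are protein-coding. Ccn2 is the one with an overlapping gene: 665 of its 2861 exonic bases (23.2%) are shared with Gm15270 on the opposite strand, which had 1 to 10 counts in a library.

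The genes were far apart in level. Per kilobase of merged exon and over all 12 libraries, Fezf2 had the highest level of the 9, 20.9 ± 5.87 CPM per kilobase (SD, n = 12), at the 87.0th percentile of genes tested. Tbr1 followed at 11.4 ± 3.20, Slc17a6 at 8.03 ± 3.13, Ccn2 at 6.39 ± 3.52 and Cux2 at 5.14 ± 2.62 CPM per kilobase. The steps among Slc17a6, Ccn2 and Cux2 were each smaller than 1 SD between libraries. Prkcd had 2.29 ± 0.616 and Rorb 2.28 ± 0.568 CPM per kilobase, levels that did not differ beyond their spread. Tcf7l2 had 0.627 ± 0.106 and Lhx9 0.623 ± 0.248 CPM per kilobase, again within their spread, both at the 16.7th percentile of genes tested. The depth behind these levels was 723 to 2304 counts for Fezf2 and 81 to 242 counts for Lhx9 in a library.

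**Figure D1:**
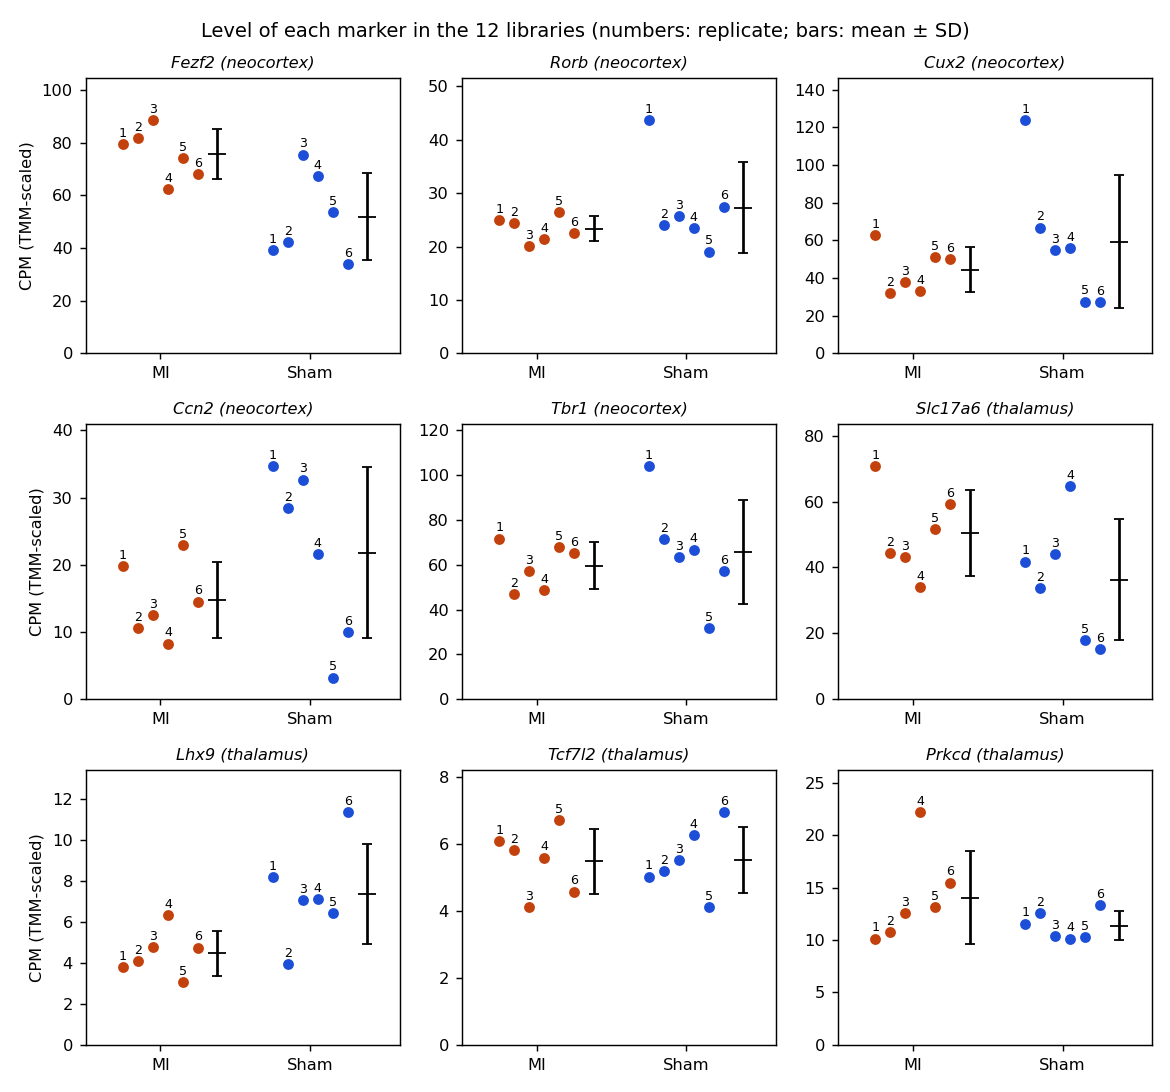
Level of each gene (vertical axis, TMM-scaled CPM on a linear scale starting at 0) in the 6 MI libraries and the 6 Sham libraries; each point is 1 library with its replicate number, and the bar beside each group is the mean ± SD. Sham 1 stands above all other libraries for Rorb, Cux2, Ccn2 and Tbr1, and the MI and Sham points overlap for each of the 9 genes.

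MI was compared with Sham to ask whether these genes differ after infarction. None of the 9 passed the threshold of edgeR's quasi-likelihood test, a Benjamini-Hochberg adjusted p under 0.05 over all genes. The background was the same, with 0 of 16829 genes called, or 0%. At an unadjusted p under 0.05, 2 of the 9 genes stood, Fezf2 with the higher level in MI and Lhx9 with the lower, where 7.55% of all genes tested (1270 genes) did. DESeq2 also called 0 of the 9, and 10 genes in all (0.0594%). With 2 surrogate variables, library-level factors estimated from the counts, 0 of the 9 and 0% of all genes were called. The levels given next are TMM-scaled CPM, and fold changes are MI over Sham on the log2 scale.

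Among the neocortex genes, Fezf2 had 62.4 CPM in its lowest, 76.7 in its median and 88.5 in its highest MI library, against 34.0, 47.9 and 75.5 CPM in Sham. Every MI library exceeded the Sham median and 4 Sham libraries lay below every MI library, while Sham 3 and Sham 4 lay within the MI range. The means were 75.7 ± 9.50 CPM in MI and 52.0 ± 16.6 CPM in Sham (mean ± SD of 6), and the log2 fold change was 0.54 (SE 0.18, 95% interval 0.15 to 0.93). The edgeR adjusted p was 0.597 (unadjusted 0.0105), and over the 25 alternative fits the adjusted p ran from 0.261 to 0.999. The fold change of Fezf2 was positive in all 26 fits, and it was 0.34 (unadjusted p 0.0484, edgeR adjusted p 0.735) without Sham 1 and Sham 6.

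Tbr1 had 46.8 CPM in its lowest, 61.2 in its median and 71.6 in its highest MI library, against 31.6, 65.0 and 104 CPM in Sham. Both extremes of the 12 were Sham libraries, Sham 5 at the bottom and Sham 1 at the top, and all 6 MI libraries lay between them. The log2 fold change was -0.14 (SE 0.22, 95% interval -0.61 to 0.34; edgeR adjusted p 0.922). Without Sham 1 it was 0.04, without Sham 5 it was -0.29, and with 2 surrogate variables it was 0.22 (unadjusted p 0.0456, edgeR adjusted p 0.480), so its sign depended on the libraries and on the model.

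Cux2 had Sham 1 at the top as well. Its lowest, median and highest levels were 32.0, 43.9 and 62.7 CPM in MI, against 27.0, 55.4 and 124 CPM in Sham. Sham 5 and Sham 6 lay below every MI library, and MI 1 was the one MI library above the Sham median. The log2 fold change was -0.41 (SE 0.34, 95% interval -1.14 to 0.32; edgeR adjusted p 0.815), it was -0.06 without Sham 1, -0.20 without Sham 1 and Sham 6, and 0.14 with 2 surrogate variables.

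Ccn2 varied most of the 9. It had 8.25 CPM in its lowest, 13.5 in its median and 23.0 in its highest MI library, against 3.21, 25.0 and 34.7 CPM in Sham. Sham 1, Sham 2 and Sham 3 lay above every MI library, Sham 5 lay below every MI library, and no MI library reached the Sham median. The log2 fold change was -0.55 (SE 0.46, 95% interval -1.55 to 0.44; edgeR adjusted p 0.817), and it was -0.79 (unadjusted p 0.0358, edgeR adjusted p 0.383) without Sham 5 and 0.26 with 2 surrogate variables.

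Rorb was the steadiest of the 5 neocortex genes within groups. It had 20.1, 23.5 and 26.4 CPM in MI, against 19.1, 24.9 and 43.6 CPM in Sham as lowest, median and highest, and all 6 MI libraries lay within the Sham range. The highest Rorb level was that of Sham 1, and the log2 fold change of -0.22 (SE 0.16, 95% interval -0.58 to 0.13; edgeR adjusted p 0.793) was -0.04 without it and -0.11 without Sham 1 and Sham 5.

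Among the thalamus genes, Lhx9 had 3.08 CPM in its lowest, 4.42 in its median and 6.34 in its highest MI library, against 3.94, 7.10 and 11.4 CPM in Sham. Of the 6 Sham libraries, 5 lay above every MI library and Sham 2 lay within the MI range. The means were 4.47 ± 1.12 CPM in MI and 7.36 ± 2.43 CPM in Sham (mean ± SD of 6), and the log2 fold change was -0.71 (SE 0.22, 95% interval -1.20 to -0.23). Its edgeR adjusted p was 0.597 (unadjusted 0.00717), and the adjusted p ran from 0.220 to 0.999 over the alternatives. The fold change of Lhx9 was negative in all 26 fits, and it was -0.46 (unadjusted p 0.0447, edgeR adjusted p 0.731) without Sham 1 and Sham 6.

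Slc17a6 had 34.1 CPM in its lowest, 48.0 in its median and 70.8 in its highest MI library, against 15.2, 37.8 and 64.6 CPM in Sham. Sham 5 and Sham 6 stood at the bottom, and 5 of 6 MI libraries exceeded the Sham median. The log2 fold change was 0.48 (SE 0.31, 95% interval -0.20 to 1.16; edgeR adjusted p 0.753). It was 0.32 without Sham 6, 0.73 (unadjusted p 0.0276, edgeR adjusted p 0.502) without Sham 4 and 0.86 with 2 surrogate variables (unadjusted p 0.0124, edgeR adjusted p 0.402).

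The other thalamus genes were closer between the groups. Tcf7l2 had 4.13, 5.70 and 6.72 CPM in MI, against 4.12, 5.36 and 6.96 CPM in Sham as lowest, median and highest, so that the groups covered nearly the same range. Its log2 fold change was -0.01 (SE 0.14), and the 95% interval of -0.31 to 0.30 is the range of differences that these libraries allow (edgeR adjusted p 0.996). Prkcd had 10.1, 12.8 and 22.2 CPM in MI, against 10.1, 11.0 and 13.4 CPM in Sham. The highest Prkcd level was that of MI 4, and the log2 fold change of 0.31 (SE 0.17, 95% interval -0.06 to 0.67; edgeR adjusted p 0.714) was 0.13 without that library.

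**Figure D2:**
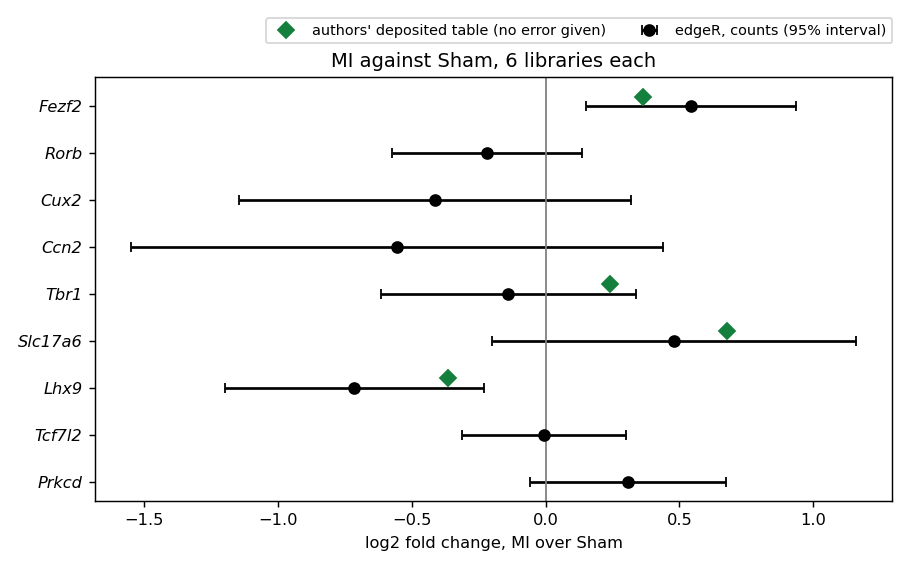
Log2 fold change of each gene, MI over Sham (horizontal axis), from the counts with its 95% interval (black circles, 6 libraries in each group) and, for the 4 genes listed there, from the authors' deposited table, which gives no error (green diamonds). The intervals of Fezf2 and Lhx9 lie on 1 side of 0 before adjustment, and Tbr1 is the gene whose diamond and circle have opposite signs.

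The extremes of the set came from the same few libraries. Sham 1 was the highest of the 12 for 4 genes (Rorb, Cux2, Ccn2 and Tbr1). Sham 5 was the lowest for 4 (Rorb, Ccn2, Tbr1 and Tcf7l2). Sham 6 was the highest for Lhx9 and Tcf7l2 and the lowest for Fezf2, Cux2 and Slc17a6. The standard deviation of log2 CPM was larger among Sham libraries than among MI libraries for 7 of the 9 genes (77.8%), all but Tcf7l2 and Prkcd. Among all genes tested the share was 76.2%, close to that of the set.

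The spread within groups was large for most of the genes. The pooled SD of log2 CPM was 1.02 for Ccn2, at percentile 99.2 of genes tested, 0.65 for Cux2 (percentile 96.7) and 0.63 for Slc17a6 (percentile 96.4), beside a median of 0.17 over all genes. Tbr1 had 0.44, Lhx9 0.43, Fezf2 0.35, Prkcd 0.31, Rorb 0.30 and Tcf7l2 0.26, between percentiles 69.9 and 89.5. The biological coefficient of variation, edgeR's estimate of spread beyond counting error, was 54.0% for Ccn2, 39.9% for Cux2 and 37.5% for Slc17a6, beside a median of 11.3%. The pooled SD rested on single libraries for 4 genes: it was 0.64 for Ccn2 and 0.29 for Tbr1 without Sham 5, 0.17 for Rorb without Sham 1 and 0.20 for Prkcd without MI 4.

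**Figure D3:**
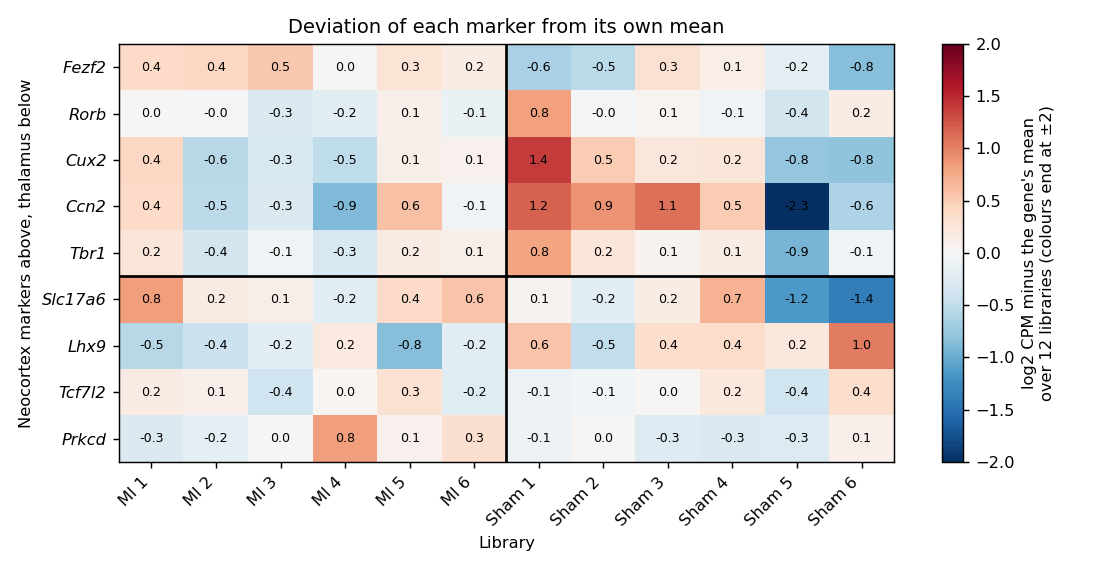
Deviation of each gene (rows, neocortex genes above the line and thalamus genes below it) from its own mean over the 12 libraries, in log2 CPM, with MI libraries in the left columns and Sham libraries in the right; red is above the gene's mean and blue below. Sham 1 is red for Rorb, Cux2, Ccn2 and Tbr1 together, Sham 5 is blue for the same 4, and Sham 6 is red for Lhx9 and blue for Fezf2 and Slc17a6.

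Whether genes of the same list vary together was asked over the 12 libraries, for all 36 pairs of the 9 genes. Of these, 3 pairs passed an adjusted p under 0.05 in a two-sided permutation test of Pearson's r of log2 CPM, and all 3 were among the neocortex genes Cux2, Ccn2 and Tbr1. The share of passing pairs among all genes tested was not computed, so the count is not shown to be particular to these genes. Genes outside the set came closer still, such as Cdc42ep3 to Cux2 (r = 0.98) and Vill to Ccn2 (r = 0.97). Ccn2 and Tbr1 had r = 0.91 (Spearman's rho 0.83; permutation p 3e-05, adjusted over 36 pairs 0.00108), and r = 0.77 without the 2 libraries farthest from the median of Ccn2, MI 4 and Sham 5. Cux2 and Tbr1 had r = 0.88 (rho 0.92; permutation p 0.00012, adjusted 0.00216), and r = 0.92 without Sham 1 and Sham 6, those farthest from the median of Cux2. Cux2 and Ccn2 had r = 0.84 (rho 0.88; permutation p 0.00117, adjusted 0.0140), and r = 0.90 without the same 2 libraries.

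The correlations of these 3 genes were positive in each group taken alone. Within MI, r was 0.97 for Cux2 and Tbr1, 0.91 for Ccn2 and Tbr1 and 0.88 for Cux2 and Ccn2, with exact permutation p-values of 0.00139, 0.0181 and 0.0236 in that order (n = 6). The first of these is the smallest p that 720 permutations of 6 libraries allow, and it came to 0.05 when adjusted over 36 pairs. Within Sham, r was 0.87 for Cux2 and Tbr1, 0.91 for Ccn2 and Tbr1 and 0.83 for Cux2 and Ccn2, with exact permutation p-values of 0.0236, 0.00694 and 0.0417 in that order (n = 6), and none passed when adjusted. In the 6 Y-linked and the 6 Xist libraries, r for the 3 pairs lay between 0.76 and 0.99.

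Rorb had positive r with all 3, none of which passed. Its r was 0.77 with Tbr1 (rho 0.52; permutation p 0.00977, adjusted 0.0879), 0.71 with Cux2 (rho 0.35; adjusted permutation p 0.101) and 0.63 with Ccn2 (rho 0.59; adjusted permutation p 0.172). Without Sham 1 and Sham 5 these became 0.29, 0.08 and 0.35. Within MI, which holds neither library, r was 0.42 with Tbr1, 0.51 with Cux2 and 0.68 with Ccn2 (exact permutation p 0.390, 0.276 and 0.146, n = 6). Over the 12 libraries Fezf2 had r between -0.48 and 0.00 to the other 4 neocortex genes, and none passed. Without Sham 1 and Sham 6 these were 0.19 with Rorb, -0.11 with Cux2, 0.12 with Ccn2 and 0.14 with Tbr1. In the Y-linked libraries they ran from -0.69 to -0.47 and in the Xist libraries from -0.17 to 0.60 (n = 6 each). The highest r of Fezf2 among the 9 was with Slc17a6 of the thalamus list, 0.66 (rho 0.64; permutation p 0.0200, adjusted 0.120), which was 0.56 without Sham 1 and Sham 6. It was 0.23 within MI and 0.58 within Sham (exact permutation p 0.664 and 0.236, n = 6 each). With Prkcd, Fezf2 had r = -0.11 over the 12 libraries, but -0.84 within MI and -0.88 within Sham. The exact permutation p-values were 0.0347 and 0.0375 (n = 6 each), and neither passed when adjusted.

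The thalamus genes showed no such relation among themselves. Their 6 pairs had r between -0.56 and 0.10, with a median of 0.01 and 0 called, beside a median of 0.67 for the 10 neocortex pairs. Slc17a6 had r = -0.56 with Lhx9. Its r over all libraries was 0.60 with Ccn2, 0.55 with Cux2 and 0.52 with Tbr1, none of which passed (adjusted permutation p 0.172, 0.215 and 0.259). These were 0.32, 0.64 and 0.39 without the 2 libraries farthest in each case. Within MI they were 0.80, 0.91 and 0.85 (exact permutation p 0.0597, 0.0194 and 0.0375, n = 6). Within Sham they were 0.76, 0.73 and 0.61 (exact permutation p 0.0833, 0.1 and 0.193, n = 6). None of these passed when adjusted. In the Y-linked libraries they were 0.14, 0.18 and 0.23, and in the Xist libraries 0.76, 0.90 and 0.64. Whether these values differ from those between Slc17a6 and its own list was not tested.

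**Figure D4:**
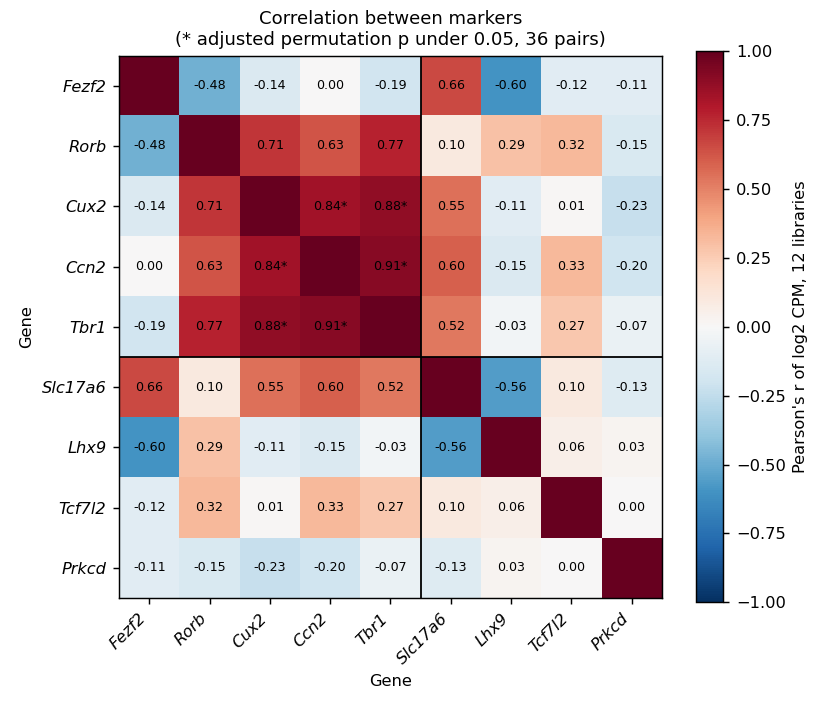
Pearson's r of log2 CPM over the 12 libraries for each pair of the 9 genes (both axes; neocortex genes first, then thalamus genes), with asterisks for an adjusted permutation p under 0.05 over 36 pairs. The pairs of Cux2, Ccn2 and Tbr1 carry the asterisks, with r of 0.84 to 0.91, and the thalamus block holds no r above 0.10 off the diagonal.

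The fold changes of 4 neocortex genes took opposite signs in the Y-linked and the Xist libraries, sets that hold 3 libraries of each group. Ccn2 had a mean of 13.5 ± 5.86 CPM in MI and 31.9 ± 3.18 CPM in Sham among libraries with Y-linked counts (SD, n = 3 each), with every MI library below every Sham library. Of all genes tested, 21.7% had groups that did not overlap in that set, in one direction or the other. Among libraries with Xist it had 16.0 ± 6.33 CPM in MI and 11.6 ± 9.32 in Sham. The difference of mean log2 CPM, MI minus Sham, was -1.32 in the set with Y-linked counts and 0.77 in the set with Xist. The same differences were -0.84 and 0.33 for Cux2, -0.41 and 0.26 for Tbr1, and -0.44 and 0.08 for Rorb. Fezf2 had 0.60 and 0.58, and Slc17a6 0.25 and 0.98. Among libraries with Xist, Fezf2 had a mean of 74.6 ± 6.88 CPM in MI and 51.6 ± 16.7 CPM in Sham, with every MI library above every Sham library. Lhx9 had -0.33 and -1.03, with every MI library below every Sham library among those with Xist, where groups did not overlap for 5.62% of all genes tested.

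The difference between the sets was itself tested as an interaction of group and set. None of the 9 genes was called, where 2 genes of 16829 were (0.0119%), and none had an unadjusted p under 0.05, as 8.24% of all genes tested did. Ccn2 came nearest, with a difference of log2 fold changes of -1.71 (95% interval -3.46 to 0.04; edgeR p 0.0546, adjusted 0.601), then Cux2 with -1.15 (95% interval -2.38 to 0.09; edgeR p 0.0656, adjusted 0.607). Of the libraries at the extremes of the region markers, Sham 1 is among those with Y-linked counts and Sham 5 and Sham 6 among those with Xist. Their part in the difference was not tested.

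Other markers of the same regions were counted in the same way. Of 17 other neocortex markers tested, 3 had positive and 14 negative fold changes, with a median of -0.34. Over all genes tested, 47.6% were positive and the median was -0.01. None of the 17 passed the edgeR threshold, and 4 had an unadjusted p under 0.05, where 7.55% of all genes did. Moxd1, a monooxygenase-like protein, had 9.29 ± 1.20 CPM in MI and 13.4 ± 4.35 in Sham, a log2 fold change of -0.53 (SE 0.19). Etv1, an ETS factor of deep-layer neurons, had 91.7 ± 10.4 CPM in MI and 67.8 ± 18.6 in Sham, a log2 fold change of 0.43 (SE 0.16). Ntsr1, a neurotensin receptor of neurons that project to the thalamus, had 7.93 ± 2.38 CPM in MI and 12.2 ± 4.48 in Sham, a log2 fold change of -0.62 (SE 0.26; SD, n = 6 each). Otof, the calcium sensor otoferlin, named because the count is small, had -1.02 (SE 0.44). The edgeR adjusted p was 0.597 for Moxd1 and Etv1, 0.635 for Ntsr1 and 0.639 for Otof.

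Of 12 other thalamus and habenula markers tested, 4 had positive and 8 negative fold changes, with a median of -0.10. Nwd2 had 32.9 ± 3.31 CPM in MI and 52.2 ± 27.5 in Sham, a log2 fold change of -0.67 (SE 0.28). Slitrk6, a membrane protein of neurites, had 1.01 ± 0.332 CPM in MI and 0.722 ± 0.254 in Sham, a log2 fold change of 0.46 (SE 0.26). Zic1, a zinc finger factor, had 7.27 ± 2.03 CPM in MI and 10.2 ± 4.52 in Sham, a log2 fold change of -0.47 (SE 0.28; SD, n = 6 each). Their edgeR adjusted p-values were 0.635, 0.725 and 0.731 in that order, and Nwd2 was the only one of the 12 under 0.05 unadjusted, at 0.0362.

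The summed levels of several whole marker lists had their extremes in the same libraries as the set. The 18 other neocortex markers summed to between 366 and 501 CPM in MI libraries and between 319 and 592 CPM in Sham libraries. They were lowest in Sham 5 and highest in Sham 1, the same libraries as for the 5 neocortex genes of the set, which summed to 174 to 259 CPM in MI and 135 to 345 CPM in Sham. Of the 18, Nr4a2, Etv1 and Tle4 had the highest means. These were 118, 91.7 and 63.1 CPM in MI and 108, 67.8 and 64.7 CPM in Sham. The 10 meningeal fibroblast markers summed to 107 to 214 CPM in MI. In Sham they ran from 78.0 in Sham 6 to 415 in Sham 1, and all 10 had negative fold changes. Most of this sum was Dcn and Igf2, with means of 81.8 and 35.9 CPM in MI and 93.6 and 65.0 CPM in Sham. The CA1 pyramidal markers ran the other way, lowest in Sham 1 and highest in Sham 5, and all 7 had positive fold changes. Of all genes tested, 47.6% had positive fold changes. The signs within a list come from the same 12 libraries and are not separate observations. The 4 subiculum markers summed to 145 to 186 CPM in MI and 86.9 to 183 CPM in Sham, lowest in Sham 5, and 3 of the 4 had positive fold changes. Most of that sum was 1 gene, Fn1, with a mean of 135 CPM in MI and 109 CPM in Sham, so relations to it mainly follow Fn1. The 16 other thalamus and habenula markers summed to 93.0 to 119 CPM in MI and 98.9 to 161 CPM in Sham, highest in Sham 2. Most of this sum was Nwd2 and Plekhg1, with means of 32.9 and 37.0 CPM in MI and 52.2 and 31.5 CPM in Sham. Whether these tissues are the source of the values of the 9 genes was not tested.

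The log2 CPM of each gene was also set against the log2 sum of each of 9 marker lists over the 12 libraries, which share their depth and scaling. Of these 81 relations, 14 passed an adjusted p under 0.05 in a two-sided permutation test of Pearson's r, and 7 by Spearman's rho. How often other genes pass with these lists was not computed. With the other neocortex markers, r was 0.92 for Cux2 (rho 0.95; adjusted permutation p 0.000405), 0.92 for Ccn2 (rho 0.93; 0.000405) and 0.87 for Tbr1 (rho 0.90; 0.00506). These were 0.92, 0.91 and 0.92 without Sham 5 and Sham 6, the libraries farthest from the median of that list. Fezf2 had r = 0.14 with that list (rho 0.02; adjusted permutation p 0.788) and 0.58 with the subiculum markers (rho 0.64; 0.157). The latter r was 0.04 within MI and 0.48 within Sham. By Pearson's r, Fezf2 passed with the interneuron markers alone, at 0.77 (rho 0.54, adjusted permutation p 0.0126). That r was 0.46 without Sham 2 and Sham 6, -0.11 within MI and 0.82 within Sham (n = 6 each).

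Relations to other lists passed as well. With the meningeal fibroblast markers r was 0.91 for Cux2 (rho 0.87; adjusted permutation p 0.00216) and 0.82 for Ccn2 (rho 0.94; 0.0102), and these were 0.83 and 0.85 without Sham 1 and Sham 6. Tbr1 passed with that list as well, with r = 0.74 (rho 0.73; adjusted permutation p 0.0312), and 0.73 without Sham 1 and Sham 6. With the CA1 pyramidal markers r was -0.90 for Tbr1 (rho -0.75; adjusted permutation p 0.00535) and -0.89 for Rorb (rho -0.59; 0.0102), which became -0.70 and -0.47 without Sham 1 and Sham 5. Cux2 and Ccn2 passed with the CA1 list too, at r = -0.82 (rho -0.66; adjusted permutation p 0.0126) and -0.75 (rho -0.69; 0.0413). Without the same 2 libraries these were -0.49 and -0.54. Slc17a6 had r = 0.86 with the subiculum markers (rho 0.87; adjusted permutation p 0.00729) and 0.82 with the interneuron markers (rho 0.90; 0.0126), and 0.71 and 0.70 without the 2 libraries farthest from the median of each list. Within MI these were 0.69 and 0.85, and within Sham 0.85 and 0.78 (n = 6 each). With the other thalamus and habenula markers Slc17a6 had r = 0.09 (rho -0.05; adjusted permutation p 0.857), and none of the 9 genes passed with that list. With the other neocortex markers Slc17a6 had r = 0.76 (rho 0.41; adjusted permutation p 0.0323), which was 0.28 without Sham 5 and Sham 6. Within MI, which holds neither library, this r was 0.93, and within Sham it was 0.85 (n = 6 each).

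For each gene, the 3 genes with the most similar pattern were taken by Pearson's r of log2 CPM over the 12 libraries, among 13589 tested genes with a mean of at least 50 counts. Closest to Fezf2 were Sulf2, an extracellular sulfatase acting on heparan sulfate, with r = 0.98, Trmt9b with 0.96 and Etv1 with 0.95. For Cux2 they were Cdc42ep3, an effector of the small GTPase Cdc42, Tceal9 and Gm11549, each with r = 0.98. For Ccn2 they were Vill, a villin-like protein, Spint2, an inhibitor of serine proteases, and Rai14, an actin-binding protein, each with r = 0.97. Tbr1 was nearest to Lgr6, a receptor of R-spondins, with r = 0.97, then Necab3 with 0.96 and Dpp4, a dipeptidyl peptidase, with 0.95. Slc17a6 was nearest to Vwc2l and Cdh20, a cadherin, with r = 0.96 each, and Tox, an HMG-box factor, with 0.95. The lists of these 5 genes had no name in common.

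Likeness was lower or rested on fewer libraries for the rest. Rorb was nearest to Gm12276 (r = 0.96), Chuk, a kinase of the NF-kappaB pathway (0.96), and Luc7l3, a splicing factor (0.95). Without Sham 1 and Sham 5 these were 0.90, 0.79 and 0.75. Lhx9 was nearest to Supt20, a subunit of a transcription coactivator complex (0.85), Sf3a1, a splicing factor (0.85), and Pigb, an enzyme of membrane anchor synthesis (0.84). Tcf7l2 was nearest to Gja1, the astrocyte connexin (0.88), Gli3, a factor of Hedgehog signalling (0.84), and St3gal4, a sialyltransferase (0.84). Prkcd was nearest to Rpl6, a ribosomal protein (0.83), Mrps28, a mitochondrial ribosomal protein (0.83), and Mgll, which breaks down an endocannabinoid (0.82). Without the 2 libraries farthest from the median of Prkcd these 3 were 0.53, 0.39 and 0.73. The points share their libraries and depth, and the values were picked as the highest of many, so they are descriptions.

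The authors' own comparison lists 4 of the 9 genes, where it lists 1025 of the 16829 genes tested here. The authors' deposited tables hold 542 genes as higher in MI and 517 as lower. Slc17a6 has a log2 fold change of 0.68 (adjusted p 0.00760), Fezf2 0.36 (0.0249) and Tbr1 0.24 (0.0249) in the authors' deposited table for higher genes. The authors' deposited table for lower genes has Lhx9 at -0.36 (0.0332). Rorb, Cux2, Ccn2, Tcf7l2 and Prkcd are in neither of the authors' deposited tables. The sources used here do not give how the authors made these values, and the difference from the counts could not be traced.

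The expression values in the authors' deposited table differ from the counts library by library. For Slc17a6 the authors' deposited table gives 11.75 to 12.15 in MI and 11.05 to 11.69 in Sham on its log2 scale, with every MI value above every Sham value, whereas the CPM of the groups overlap. For Tbr1 the authors' deposited table gives 10.35 to 10.69 in MI and 10.20 to 10.41 in Sham, and its values have r = 0.10 with log2 CPM across the libraries. Sham 1, which had the highest Tbr1 level by counts, is next to the lowest in the authors' deposited table. The r between the authors' deposited values and log2 CPM is 0.77 for Fezf2, 0.86 for Lhx9 and 0.58 for Slc17a6. The SD of Slc17a6 is 0.17 in MI and 0.26 in Sham in the authors' deposited table, and 0.37 in MI and 0.81 in Sham in log2 CPM.

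Over all listed genes the same comparison was made. Of 1025 genes in the authors' deposited tables that were tested here, 479 (46.7%) have groups that do not overlap in the authors' values, where 60 (5.85%) do so in log2 CPM, and 69 (0.41%) of all genes tested do. These genes were picked by the authors for their difference, so the shares describe the tables. The median r between the authors' deposited values and log2 CPM over these genes was 0.687.

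**Figure D5:**
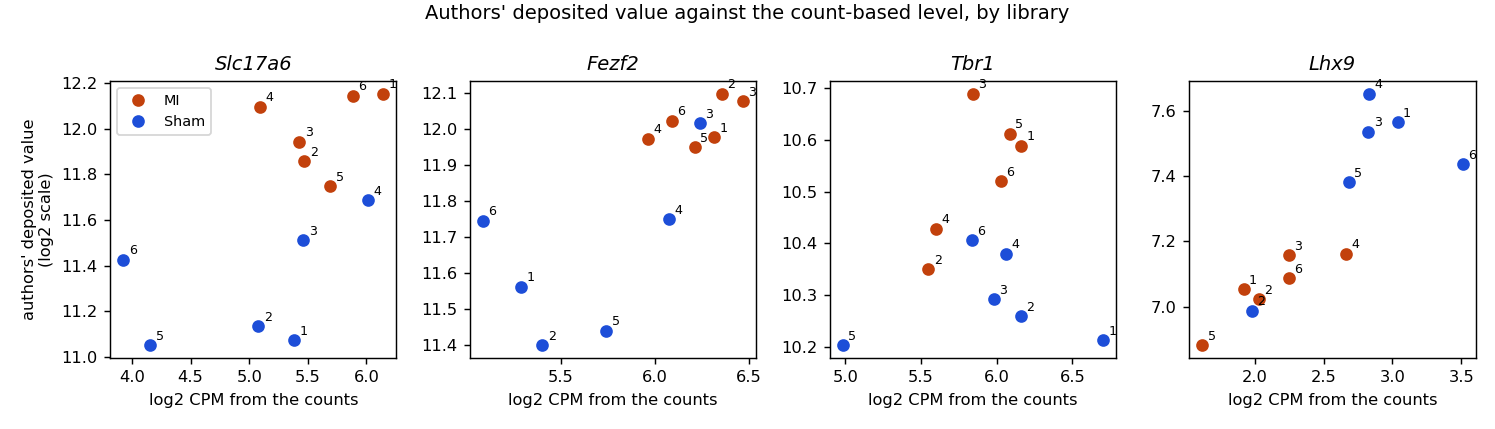
Authors' deposited log2-scale value (vertical axis) against log2 CPM from the counts (horizontal axis) for the 4 genes in the authors' deposited tables; each point is 1 library with its replicate number, MI in orange and Sham in blue, and the axes do not start at 0. For Slc17a6 the groups part on the vertical axis but not on the horizontal, and for Tbr1 the points of Sham 1 and Sham 5, farthest apart on the horizontal axis, lie side by side at the bottom of the vertical.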

How the data were processed

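The authors deposited raw read counts per gene, whole numbers without any scaling. The submitters' processing notes name the build mm10, Subread 1.5.1 with featureCounts, STAR 2.5.2b and FastQC 0.11.5. The sources used here do not state whether counting used strand. In the authors' deposited tables each gene has log2 expression values, a log2 fold change and an adjusted p-value, by a method that the sources used here do not state.

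GENCODE M21, also on mm10, gave symbols and positions for 48349 of 48709 IDs. Genes were filtered by edgeR's filterByExpr and scaled by TMM, and the two-sided quasi-likelihood F test (edgeR 4.0.16 under R 4.3.3, robust dispersion) set MI against Sham, with p adjusted by Benjamini-Hochberg over all genes. CPM are edgeR's, log2 CPM used a prior count of 2, and SEs and intervals come from the fit. Correlations used 100000 permutations (numpy 2.4.6, with ranks by scipy 1.17.1), or all 720 within a group. The fits by edgeR, DESeq2 and limma-voom and the permutation p were also run on simulated data, whose outcome is not reported here. Alternatives were DESeq2 1.42.0, 2 other scalings, no filter or at least 50 counts in 6 libraries, the replicate number or the sex-linked set as a term, limma-voom (limma 3.58.1) with weights per sample, and each library left out in turn. Surrogate variables (sva 3.50.0), leaving out Sham 1 with Sham 5 or Sham 6, each sex-linked set alone and the permutation tests against marker sums were chosen after seeing the data.

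The 9 genes and the 13 marker lists beside them were chosen with earlier results of these data known. Genes named were all 9, the 3 with the smallest p in each of the other neocortex and thalamus lists, and the 3 most like each of the 9; any other was named with its values known. The sex-linked sets were formed from the counts of Ddx3y, Eif2s3y, Kdm5d and Uty against Xist and are not groups of the study.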

Additional observations from a re-analysis of the deposited data

How the results depend on the processing

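None of the 9 genes was called in any of 26 fits, and the signs of Fezf2, Slc17a6 and Prkcd (positive) and Lhx9 (negative) held in all of them. DESeq2 called 10 genes in all and the libraries with Y-linked counts alone 211, where the other fits called 0. With 2 surrogate variables the log2 fold change, negative in the reported fit, was 0.00929 for Rorb, 0.14 for Cux2, 0.26 for Ccn2, 0.22 for Tbr1 and 0.0824 for Tcf7l2. In the libraries with Xist alone it was 0.0735 for Rorb, 0.27 for Cux2, 0.47 for Ccn2 and 0.22 for Tbr1, and in those with Y-linked counts alone 0.000755 for Tcf7l2. Without Sham 1 and Sham 6 it was 0.0172 for Rorb, 0.0343 for Tbr1 and 0.0579 for Tcf7l2, and without a filter 0.00379 for Tcf7l2. With 1 library left out it ran from -0.285 to 0.0379 for Tbr1 and from -0.0809 to 0.0690 for Tcf7l2. The cause was not tested. The 3 called pairs became 5 with the group means removed, 5 without Sham 1 and Sham 6, 4 without Sham 1 and Sham 5, and 3 to 4 with 1 library left out. By Spearman's rho the 3 became 6 with the group means removed, 1 without Sham 1 and either Sham 5 or Sham 6, and 2 to 4 with 1 library left out. With the replicate number as a block, 0 genes and 0 of the 9 were called (smallest adjusted p 0.741). Libraries with the same number had correlations of -0.35 to 0.40 in their deviations, and 3 of 6 matched their own number best. Numbers 2 and 4, the lowest at -0.35 and -0.32, joined libraries of unlike sex-linked set. The check therefore does not settle whether libraries were paired by number, and the block is given as an alternative. The interaction of group and set called 0 of the 9 in each of its 3 fits. At the spread of Ccn2, Cux2 and Slc17a6, 6 libraries a group leave wide intervals for the difference.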

Other observations

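The subiculum, the output field next to CA1, was represented by 4 markers, of which 3 had an unadjusted p under 0.05 in edgeR where 7.55% of all genes tested did, and 0 passed the adjusted threshold; they are named after their values were seen. Nts, which encodes the peptide neurotensin, had 16.4 ± 1.97 CPM in MI and 8.63 ± 4.69 CPM in Sham (mean ± SD of 6) and its log2 fold change was 0.92 (SE 0.29; edgeR adjusted p 0.597). Ly6g6e had 4.48 ± 0.785 CPM in MI and 3.09 ± 1.07 in Sham, a log2 fold change of 0.54 (SE 0.20; edgeR adjusted p 0.599). Cbln4, a secreted synaptic organizer, had 11.2 ± 5.26 CPM in MI and 21.9 ± 12.2 in Sham, a log2 fold change of -0.96 (SE 0.42; edgeR adjusted p 0.639). The authors' deposited table for higher genes gives Nts a log2 fold change of 0.64 (adjusted p 0.0287), Ly6g6e 0.26 (0.0259) and Fn1, a matrix protein, 0.42 (0.0492), which is 3 of the 4 markers. Of the 16829 genes tested here, 1025 are in the authors' deposited tables for higher or lower genes.

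Interneuron markers summed to 863 to 921 CPM in MI and 678 to 949 CPM in Sham, lowest in Sham 6 and highest in Sham 4, which were also the lowest and highest Sham libraries for Slc17a6. The 8 mature oligodendrocyte markers, genes of the myelin sheath, summed to 5007 to 6342 CPM in MI and 2720 to 5528 CPM in Sham.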
